A study of Saccharomyces cerevisiae with 27 samples.

Results

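The genes described here encode 33 nuclear subunits of the yeast mitochondrial respiratory chain and ATP synthase, out of 6388 systematic gene names on the arrays. They were taken by name: the 3 NADH dehydrogenases (NDI1, NDE1, NDE2), 9 subunits of complex III, cytochrome c (CYC1), 8 subunits of complex IV and 12 subunits of complex V, and all 33 have a spot. The rule that selects them uses names alone, although earlier results of these data were known when the genes were chosen. A gene entered the test if the image analysis had left its spot unmarked on 3 or more arrays of each age, and 32 of the 33 did. COR1, a core protein of complex III, was unmarked on 11 arrays, none of them of 1 generation, and has no test.

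The respiratory chain carries electrons from NADH and succinate through ubiquinone, complex III and cytochrome c to complex IV, which passes them to oxygen. Baker's yeast lacks the proton-pumping complex I of most eukaryotes. In its place it has single-protein NADH dehydrogenases, NDI1 on the matrix face of the inner membrane and NDE1 and NDE2 on the outer face. The proton gradient that complexes III and IV build drives complex V, the ATP synthase. Cells growing on glucose ferment most of it, and glucose represses many of these nuclear genes. The HAP2/HAP3/HAP4/HAP5 activator raises them during growth by respiration.

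The study followed replicative aging, the ageing of a mother cell with each bud it produces, in wild-type W303 yeast of a mating type kept in log phase. Mother cells of 1, 8, 12 or 18-20 generations were collected by magnetic bead sorting, and their amplified RNA was hybridised against RNA of cells labelled 1 generation old on spotted 2-colour arrays. There were 7 arrays of 1 generation, 6 of 8, 7 of 12 and 7 of 18-20 generations. The dyes were inverted on 11 of the 27. On the 1-generation arrays both channels are labelled as cells of 1 generation, so those arrays show the spread of the measurement where no change of age was made. No deletion, drug or transgene is named for any group.

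All values below are log2 ratios of the aged cells over the young cells, so 1 is a doubling and -1 a halving. Each age's mean was estimated in a single limma fit over the 27 arrays with a term for the dye, and is given with its standard error (SE). The SE rests on an estimate of spread per gene that all ages share. Between arrays, the median over all subunits had an SD of 0.06 at 1 generation, 0.55 at 12 and 0.22 at 18-20. For genes that vary more at the late ages, SEs and p-values there can therefore be too small. Fitting each age alone is among the alternatives. A gene "rose" or "fell" where its p-value, adjusted by the Benjamini-Hochberg method over all 5865 tested genes, was under 0.05. Nothing in the labels says that arrays came from separate cultures, so these p-values measure the spread between arrays, which may be technical. The ratios compare RNA of whole sorted samples, in which fewer cells of a kind and less RNA per cell cannot be told apart.

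Several arrays stood apart or resembled each other. Median spot brightness per array spanned 292 to 4484.5 in the red channel and 260 to 3927.5 in the green one, and 174 to 1157 spots were marked out. The 8-generation arrays and 18-20-generation array 7 were taken as a set against all others in one alternative fit, called the array-set block here, which separates set from age only through that array 7. Over all genes, 18-20-generation arrays 1 to 4 correlated with each other at r = 0.93 to 0.96 and with arrays 5 to 7 at 0.63 to 0.73. Among arrays of 12 generations the pairs 4 and 5 (r = 0.92) and 6 and 7 (r = 0.86) were also alike. The labels do not say whether alike arrays shared RNA. The 8-generation array 1 ran against its group (r = -0.64, -0.58 and -0.66 with arrays 2, 3 and 4), so its direction is not settled. Array 3 of that age is inverted by its title and dye labels, while its description names no inversion. In the authors' deposited table the columns of 8-generation arrays 1 and 3 each matched the other's scanner file best (r = 0.97 and 0.94), as did those of 1-generation arrays 3 and 4 (r = 0.92 and 0.75), so files or columns may be exchanged. Array numbers here follow the scanner files. Of the 33 genes, 24 were brighter than background in both channels on every array where they were unmarked. NDE2 was so on 13 of 25 arrays and ATP5 on 14 of 17, which makes their ratios the least certain.

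**Figure D1:**
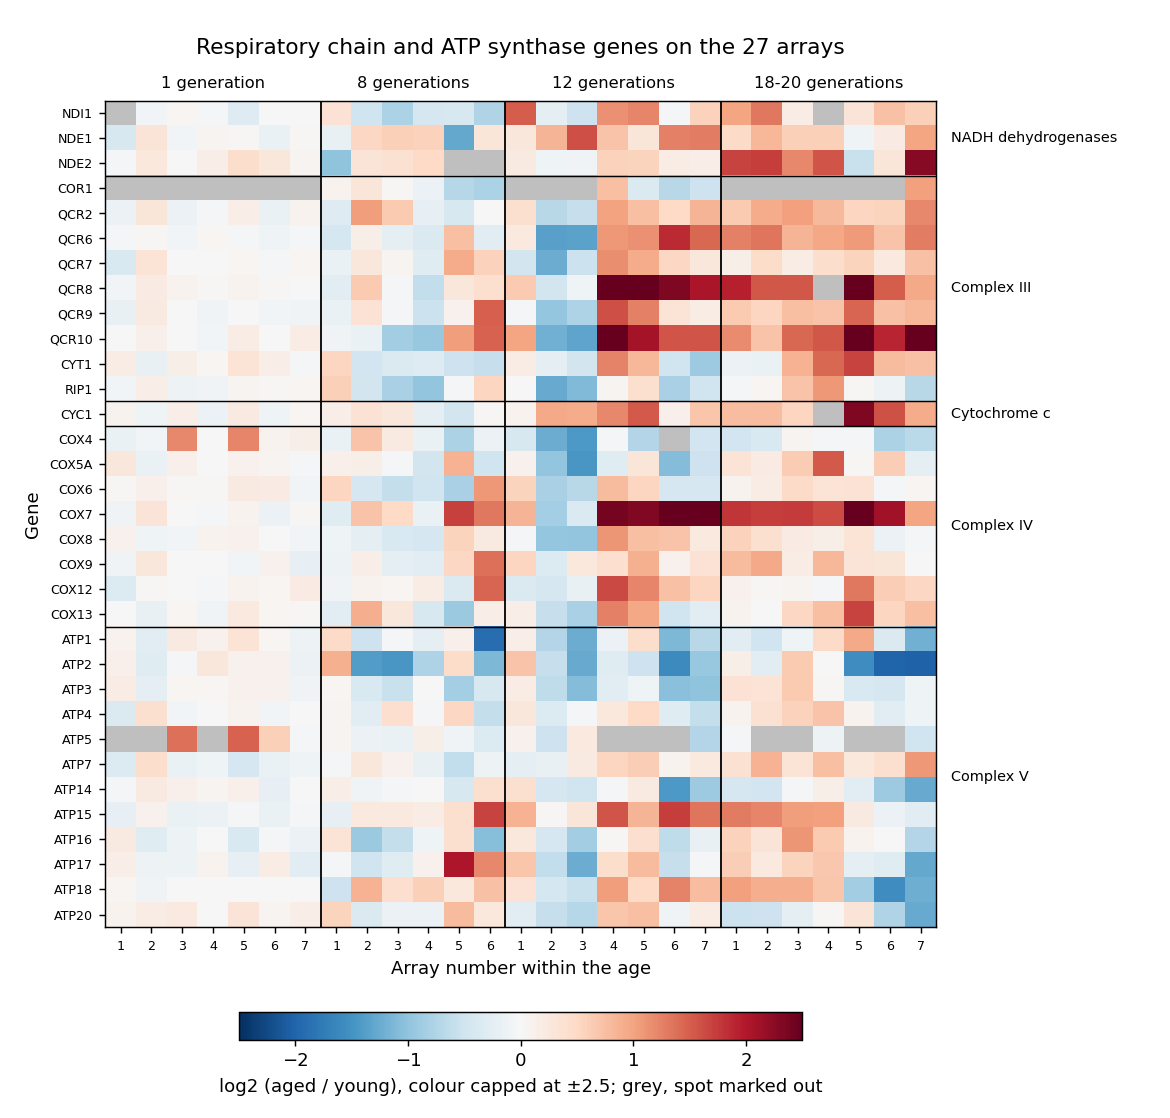
Log2 ratio of aged over young cells for the 33 genes (rows, grouped by complex) on each of the 27 arrays (columns, grouped by age); red is higher in aged cells, blue is lower, and grey marks spots left out. The 1-generation columns are nearly white apart from COX4 and ATP5 on arrays 3 and 5, the 12-generation columns differ from array to array, and complex III is red on most spots of the 18-20-generation arrays while complex V holds both colours.

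At 1 generation no subunit passed the test. That was also true of all tested genes, of which 0% passed. The median over the 32 tested subunits was 0.04, beside -0.003 for all genes. At an unadjusted p under 0.05 limma listed 13 of all 5865 tested genes. Of the subunits it listed 1, ATP5, the stalk subunit known as the oligomycin-sensitivity protein, at 0.83 ± 0.248 (SE, 4 arrays). Its ratios were 1.38 on array 3, 1.48 on array 5, 0.60 on array 6 and -0.03 on array 7. COX4, a zinc-binding subunit of complex IV, stood high on the same arrays, at 1.20 on array 3 and 1.21 on array 5, and lay between -0.17 and 0.15 on the other 5. Complex medians per array stayed near 0 at this age, from -0.06 to 0.18 for complex III and from -0.08 to 0.09 for complex V.

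At 8 generations again no subunit passed, as was the case for 0% of all genes. The 32 subunits had a median of -0.001, with 16 above 0 and 16 below, and the median over all genes was -0.006. NDI1 and ATP3 were among 748 of all 5865 tested genes with an unadjusted p under 0.05 (limma). NDI1 read 0.36 on array 1 and -0.50, -0.80, -0.43, -0.40 and -0.75 on arrays 2 to 6. With the sign of array 1 turned, 9.07% of all genes passed and still no subunit did. The subunit closest to the threshold was then ATP2, the catalytic beta subunit of the ATP synthase, at -0.87 ± 0.281 (SE), with an adjusted p of 0.0511 (limma). Leaving array 1 out also gave no subunit, with 6.72% of all genes passing, and turning array 3 gave none.

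At 12 generations, 6 subunits rose and 3 fell, or 9 of 32, where 44.8% of all genes passed (23.3% rose and 21.5% fell). The subunits' share, 28.1%, was below that of the genome. With ratios centred on each array's median in place of loess, 5 subunits rose and 7 fell, so the balance of directions at this age depended on the normalization. The genes that rose were NDI1, NDE1, QCR8, CYC1, COX7 and ATP15, and those that fell were COX4, COX5A and ATP3. The median over the 32 subunits was 0.11, beside 0.02 for all genes. The 12-generation arrays differed widely from each other: the median over all subunits was -0.58 on array 2 and -0.56 on array 3, and 0.80 on array 4 and 0.76 on array 5. Without array 2, 14 subunits were called. No subunit had all its 12-generation arrays above or below all its 1-generation arrays, a separation that 8.05% of all genes showed upward and 7.6% downward.

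At 18-20 generations, 16 subunits rose and 3 fell, or 19 of 32, where 64.2% of all genes passed. Their share, 59.4%, was close to that of the genome. The genome divided almost evenly between directions, at 32.9% rising and 31.2% falling, and the subunits did not, at 16 rising to 3 falling. Their median was 0.43, beside 0.01 for all genes, and 25 of the 32 estimates lay above 0. By complex, 3 of the 3 NADH dehydrogenases rose, as did 6 of 8 tested subunits of complex III, cytochrome c, 4 of 8 subunits of complex IV and 2 of 12 subunits of complex V. All 3 genes that fell, ATP2, ATP14 and ATP20, encode ATP synthase subunits, and none of these falls held under every alternative. They were 25% of the 12 complex V subunits, below the 31.2% of all genes that fell. With array weights 25 subunits rose and 1 fell. In a separate alternative, without weights, every array was scaled to the same spread, and 9 subunits passed, all 9 rising. The share of all genes passing under each of these settings is not given here. The SD of the ratios per array was 0.15 to 0.23 at 1 generation and 0.91 to 1.28 at 18-20 generations. Scaling therefore shrinks the ratios of 18-20 generations and enlarges those of 1 generation by construction. For 8 subunits every measured 18-20-generation array lay above every 1-generation array: NDI1, QCR2, QCR6, QCR8, QCR9, QCR10, CYC1 and COX7. Such separation held for 17.7% of all genes upward and 17.7% downward, and no subunit was separated downward.

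Genes that mark newly born daughter cells moved along with age. Of 10 daughter-specific genes, 7 fell and 2 rose at 12 generations, where 21.5% of all genes fell and 23.3% rose. At 18-20 generations 8 of the 10 fell and 2 rose, where 31.2% of all genes fell and 32.9% rose. The median of the 10 genes per array lay between -0.66 and -0.44 at 12 generations and between -1.74 and -0.72 at 18-20 generations. At 1 generation it lay between -0.07 and 0.09. At 18-20 generations DSE2, a daughter-cell wall glucanase, read -2.29 ± 0.18 (SE), and DSE4, an endoglucanase of cell separation, -2.15 ± 0.12. DSE1 read -1.26 ± 0.14 and the glucanase SCW11 -1.32 ± 0.13. Each passed at both 12 and 18-20 generations (limma). The 2 that rose at 18-20 generations were DSE3 at 0.79 and ASH1, a repressor that gathers in daughter nuclei, at 0.66. Whether the aged samples held fewer daughter cells, and what part that had in the subunits' ratios, was not tested.

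**Figure D2:**
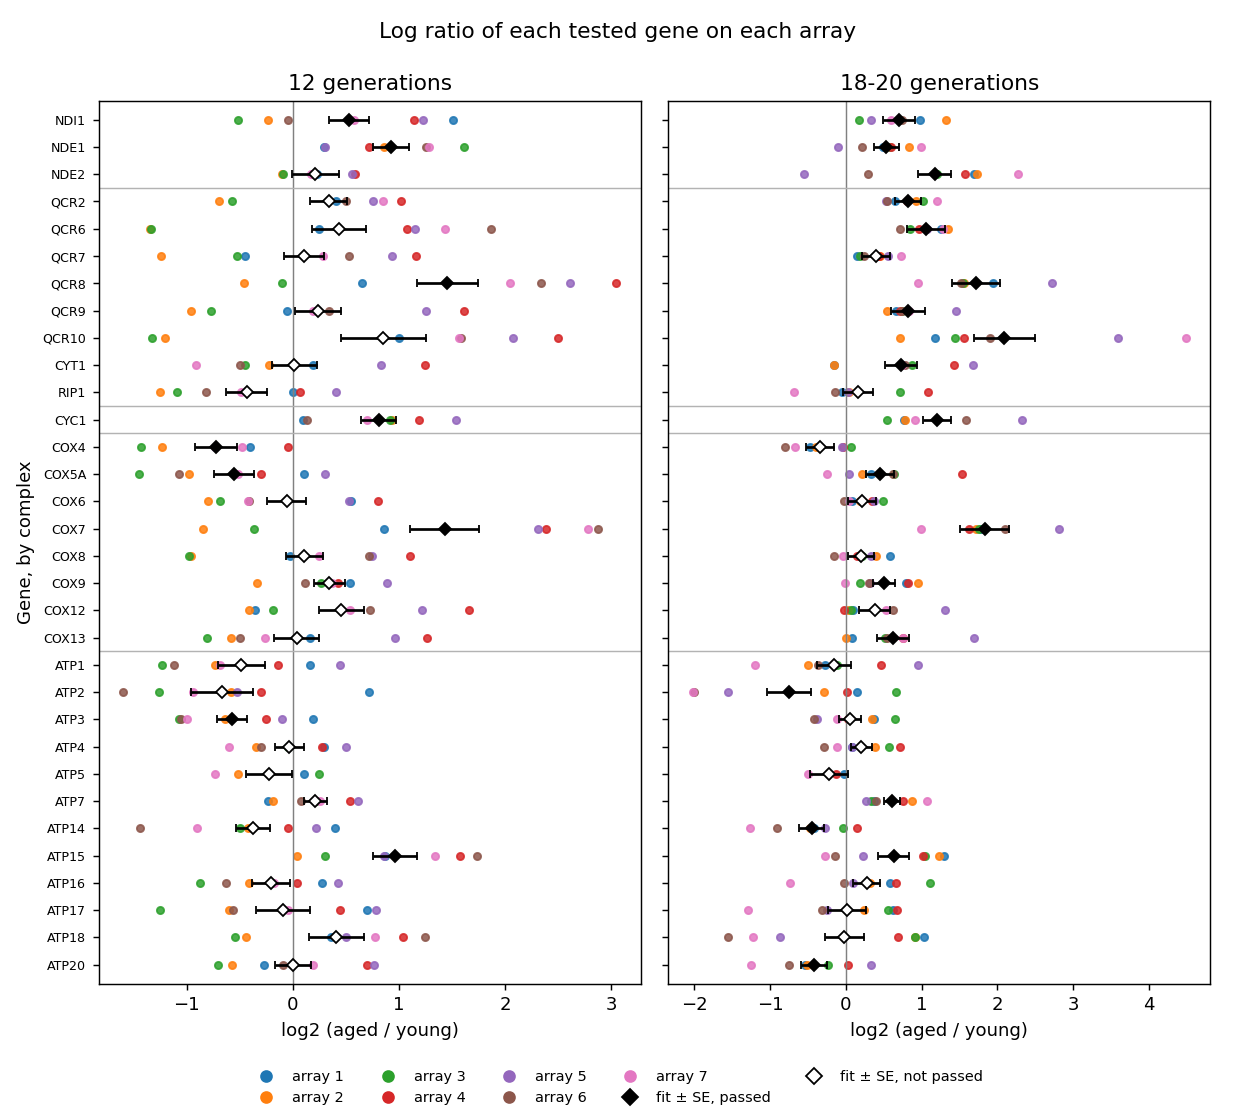
Log2 ratio of each tested subunit on each array (coloured dots, by array number) at 12 generations (left) and 18-20 generations (right), with the estimate of the fit and its SE (diamonds, filled where the adjusted p is under 0.05); the 2 axes differ in range. At 12 generations arrays 2 and 3 lie at the left for most subunits of complexes III and IV, and at 18-20 generations QCR10, COX7, QCR8 and CYC1 lie farthest to the right while ATP2 on arrays 5 to 7 lies farthest to the left.

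The NADH dehydrogenases hand electrons from NADH to ubiquinone. NDI1 (YML120C), which oxidises NADH inside the matrix, read 0.99, 1.32 and 0.18 on 18-20-generation arrays 1 to 3 and 0.33, 0.74 and 0.59 on arrays 5 to 7, with array 4 marked out. All 6 lay above the highest 1-generation value of 0.06. Its estimate was 0.70 ± 0.208 (SE, adjusted p = 0.00454). At 12 generations NDI1 was 1.50, -0.24, -0.52, 1.14, 1.23, -0.05 and 0.57 on arrays 1 to 7, high on arrays 1, 4 and 5 and below 0 on arrays 2, 3 and 6. The estimate there was 0.53 ± 0.190 (SE, adjusted p = 0.026), and the call was lost without array 1 (adjusted p = 0.130), 4 (0.102), 5 (0.122) or 7 (0.0510) and under 6 of the other alternatives. Scaling the arrays ended the call at both ages, at 0.32 (adjusted p = 0.116) and 0.36 (0.0942).

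NDE1 (YMR145C), the main external NADH dehydrogenase, rose at both late ages. On the 12-generation arrays it read 0.29, 0.86, 1.62, 0.71, 0.30, 1.26 and 1.28, all above 0, for an estimate of 0.93 ± 0.170 (SE, adjusted p = 6.97e-05). On the 18-20-generation arrays it read 0.49, 0.83, 0.59, 0.59, -0.10, 0.21 and 0.99, with array 5 alone below 0, for 0.54 ± 0.170 (SE, adjusted p = 0.00724). The call at 18-20 generations was lost with the arrays scaled (0.26, adjusted p = 0.232) or alike arrays averaged (0.49, adjusted p = 0.0752). The difference between the 2 ages, -0.39 ± 0.240 (SE), did not pass (adjusted p = 0.266).

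NDE2 (YDL085W), the second external enzyme, behaved otherwise. At 12 generations it lay between -0.10 and 0.58 and did not pass, at 0.21 ± 0.220 (SE, adjusted p = 0.462). At 18-20 generations it read 1.69, 1.73, 1.21, 1.58, -0.55, 0.30 and 2.27, high on arrays 1 to 4 and 7, low on arrays 5 and 6, for 1.17 ± 0.220 (SE, adjusted p = 4.7e-05). The rise from 12 to 18-20 generations was 0.96 ± 0.310 (SE, adjusted p = 0.0299). That call was lost without 12-generation array 2 or 3, or 18-20-generation array 1, 2, 4 or 7, with adjusted p from 0.0632 to 0.0735. It was also lost under 6 other alternatives, among them scaling (0.39, adjusted p = 0.685). NDE2 was brighter than background on fewer arrays than any other tested subunit.

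Complex III, the cytochrome bc1 complex, passes electrons from ubiquinol to cytochrome c and pumps protons. Of its 8 tested subunits 1 rose at 12 generations (12.5%), a lower share than the 23.3% of all genes that rose. At 18-20 generations 6 rose (75%), where 32.9% of all genes did. None fell at either age, where 21.5% and 31.2% of all genes fell. All 8 estimates at 18-20 generations were above 0, with a median of 0.82. The median over these genes on each 18-20-generation array was 0.66, 0.63, 0.86, 0.97, 1.26, 0.73 and 0.89. These 7 values averaged 0.86 ± 0.218 (SD, n = 7). On the 12-generation arrays the same median was 0.22, -1.08, -0.67, 1.20, 1.04, 0.51 and 0.56, low on arrays 2 and 3 and highest on arrays 4 and 5.

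QCR10 (YHR001W-A), a small subunit that yeast can live without, had the largest estimate among the subunits. It read 1.18, 0.71, 1.44, 1.56, 3.60, 1.90 and 4.49 on the 18-20-generation arrays, with arrays 5 and 7 far above the others, and between -0.08 and 0.18 on the 1-generation arrays. Its estimate was 2.09 ± 0.399 (SE, adjusted p = 4.53e-05). At 12 generations it read 0.99, -1.20, -1.33, 2.49, 2.07, 1.58 and 1.57, so 5 arrays were high and 2 were low, and 0.85 ± 0.399 (SE) did not pass (adjusted p = 0.083). Without array 2 or array 3 QCR10 did pass at 12 generations, at 1.23 and 1.22 (adjusted p = 0.0115 and 0.016).

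QCR8 (YJL166W), a small membrane subunit needed for assembly of the complex, was the complex III gene that rose at both ages. It read 0.65, -0.46, -0.11, 3.05, 2.61, 2.34 and 2.04 on the 12-generation arrays, where arrays 4 to 7 stood apart from 1 to 3, for 1.45 ± 0.288 (SE, adjusted p = 0.000188). With the array-set block this was 1.01 and did not pass (adjusted p = 0.131). On the 18-20-generation arrays it read 1.95, 1.56 and 1.54 on arrays 1 to 3 and 2.72, 1.52 and 0.95 on arrays 5 to 7, for 1.72 ± 0.315 (SE, adjusted p = 3.04e-05). Its 1-generation values lay between -0.06 and 0.20.

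QCR6 (YFR033C), the acidic hinge protein that sits by cytochrome c1, read 1.26, 1.34, 0.84, 0.97, 1.07, 0.72 and 1.29 at 18-20 generations, a narrow range well above its highest 1-generation value of 0.04. Its estimate was 1.06 ± 0.254 (SE, adjusted p = 0.000633). At 12 generations its arrays fell on both sides of 0, at 0.24, -1.35, -1.33, 1.08, 1.15, 1.86 and 1.44. QCR2 (YPR191W), a core protein facing the matrix, read 0.65, 0.93, 1.02, 0.80, 0.53, 0.55 and 1.21 at 18-20 generations, for 0.83 ± 0.173 (SE, adjusted p = 0.000147). QCR2 and QCR6 did not pass at 12 generations, and each did when 12-generation array 2 or 3 was left out (adjusted p from 0.00958 to 0.0207).

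QCR9 (YGR183C), a small subunit beside the iron-sulfur protein, was 0.66, 0.54, 0.75, 0.71, 1.45, 0.74 and 0.83 at 18-20 generations, with array 5 high and the other 6 close together. Its estimate was 0.82 ± 0.220 (SE, adjusted p = 0.00189). CYT1 (YOR065W), cytochrome c1, read -0.16 and -0.16 on arrays 1 and 2 and 0.87, 1.43, 1.68, 0.79 and 0.74 on arrays 3 to 7. It rose with 0.73 ± 0.208 (SE, adjusted p = 0.00311), although its first 2 arrays overlapped the 1-generation range of -0.19 to 0.34, and lost its call with the arrays scaled (0.41, adjusted p = 0.0584). QCR7 (YDR529C), a subunit on the matrix side, was above 0 on all 7 arrays, from 0.14 to 0.73, and did not pass (0.40 ± 0.190, SE, adjusted p = 0.0675). It passed without 12-generation array 2 (adjusted p = 0.0369) or 4 (0.0403), and under 4 other alternatives. Arrays of 12 generations enter through the dye term and the estimate of spread, which all ages share. RIP1 (YEL024W), the Rieske iron-sulfur protein, read between -0.68 and 1.09 and did not pass either, at 0.16 ± 0.193 (SE, adjusted p = 0.476). At 12 generations RIP1 was -0.44 ± 0.193 (SE, adjusted p = 0.0659) and passed without array 1 (adjusted p = 0.0383), 4 (0.035) or 5 (0.0287).

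COR1 (YBL045C), the partner of QCR2 in the core, could only be listed. It read 1.03 on 18-20-generation array 7, 0.76, -0.37, -0.70 and -0.51 on 12-generation arrays 4 to 7, and between -0.80 and 0.30 on the 6 arrays of 8 generations.

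Cytochrome c, the soluble carrier between complexes III and IV, is encoded by CYC1 (YJR048W) in cells with oxygen. CYC1 read 0.09, 0.94, 0.92, 1.19, 1.54, 0.13 and 0.70 at 12 generations, above 0 on all 7 arrays. At 18-20 generations it read 0.77, 0.78 and 0.55 on arrays 1 to 3 and 2.33, 1.59 and 0.92 on arrays 5 to 7, with arrays 5 and 6 highest. The estimates were 0.81 ± 0.164 (SE, adjusted p = 0.000251) and 1.20 ± 0.180 (SE, adjusted p = 1.72e-06), the latter with the lowest adjusted p of any subunit. The array-set block ended the call at 12 generations (0.72, adjusted p = 0.0622). Its difference between the ages, 0.40 ± 0.243 (SE), did not pass (adjusted p = 0.266).

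Complex IV, cytochrome c oxidase, reduces oxygen to water. Of its 8 nuclear subunits 1 rose and 2 fell at 12 generations (12.5% and 25%), beside 23.3% and 21.5% of all genes. The share of falls was near that of the genome. At 18-20 generations 4 rose (50%) and none fell, where 32.9% of all genes rose and 31.2% fell, and the median of the complex was 0.42. Its median per array at 18-20 generations was 0.22, 0.20, 0.35, 0.55, 0.35, 0.43 and 0.02, above 0 on all 7 arrays and lower than that of complex III on each of them, by 0.55 ± 0.239 (SD, n = 7).

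COX7 (YMR256C), a small membrane subunit, had the largest estimates in the complex at both ages. On the 12-generation arrays it read 0.86, -0.85, -0.37, 2.38, 2.31, 2.88 and 2.78, below 0 on arrays 2 and 3 and above 2.3 on arrays 4 to 7. On the 18-20-generation arrays it read 1.79, 1.72, 1.75, 1.62, 2.81, 2.10 and 0.99, all above its highest 1-generation value of 0.32. The estimates were 1.43 ± 0.325 (SE, adjusted p = 0.000729) and 1.83 ± 0.325 (SE, adjusted p = 1.77e-05). The former was lost with the array-set block (0.94, adjusted p = 0.216) or alike arrays averaged (0.97, adjusted p = 0.0506).

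COX5A (YNL052W), the aerobic form of subunit V, was the only tested subunit called in opposite directions at 12 and 18-20 generations. At 12 generations it read 0.11, -0.98, -1.45, -0.30, 0.30, -1.08 and -0.52, and fell by 0.56 ± 0.185 (SE, adjusted p = 0.0157). At 18-20 generations it read 0.34, 0.21, 0.63, 1.54, 0.04, 0.62 and -0.25, and rose by 0.45 ± 0.185 (SE, adjusted p = 0.0341). The difference of 1.01 ± 0.261 (SE) between the ages passed (adjusted p = 0.00785), though the arrays of the 2 ages overlap. The fall at 12 generations was lost without array 3 (adjusted p = 0.104) or 6 (0.0552), and the rise at 18-20 generations without array 3 (0.0762), 4 (0.232) or 6 (0.0728). Fitting 12 generations alone ended the fall (adjusted p = 0.0822), and 5 alternatives ended the rise, the least at 0.16 (adjusted p = 0.608) with the array-set block. The difference was lost with scaling (0.70, adjusted p = 0.167) or alike arrays averaged (0.89, adjusted p = 0.0596).

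COX4 (YGL187C), the zinc-binding subunit, fell at 12 generations by 0.72 ± 0.197 (SE, adjusted p = 0.00393), with -0.41, -1.24, -1.43, -0.05 and -0.73 on arrays 1 to 5 and -0.48 on array 7. The call was lost with the arrays scaled (-0.57, adjusted p = 0.174), with array weights (-0.58, adjusted p = 0.200) and in the authors' deposited table (-0.42, adjusted p = 0.110). At 18-20 generations it lay between -0.80 and 0.07 and did not pass (-0.34 ± 0.183, SE, adjusted p = 0.107). COX9 (YDL067C), a small membrane subunit, read 0.80, 0.95, 0.18, 0.82, 0.32, 0.31 and -0.01 at 18-20 generations and rose (0.51 ± 0.146, SE, adjusted p = 0.00352). This was lost with scaling (0.26, adjusted p = 0.105), the array-set block (0.35, adjusted p = 0.155) or alike arrays averaged (0.36, adjusted p = 0.133). At 12 generations COX9 was 0.34 ± 0.146 (SE, adjusted p = 0.0577) and passed without 12-generation array 2 or 8-generation array 3, 5 or 6 (adjusted p from 0.0228 to 0.0490). COX13 (YGL191W), a regulatory subunit, read 0.09, 0.00, 0.51, 0.76, 1.69, 0.55 and 0.76 and rose (0.63 ± 0.213, SE, adjusted p = 0.0117). The COX13 call was lost without array 5 (adjusted p = 0.0695) and with median centring, scaling or the array-set block (adjusted p from 0.0574 to 0.109).

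The other 3 subunits of complex IV did not pass at either age. COX6 (YHR051W) was 0.22 ± 0.184 (SE, adjusted p = 0.306) at 18-20 generations and COX8 (YLR395C) 0.20 ± 0.176 (SE, adjusted p = 0.333). COX12 (YLR038C), which lies on the side where cytochrome c docks, was 0.38 ± 0.208 (SE, adjusted p = 0.112), with 1.31, 0.62 and 0.53 on arrays 5 to 7 and values between -0.03 and 0.10 on arrays 1 to 4. COX12 was 0.46 ± 0.208 (SE, adjusted p = 0.0749) at 12 generations and passed there without array 1 (adjusted p = 0.0311), 2 (0.026) or 3 (0.0344), or 8-generation array 6 (0.0478).

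**Figure D3:**
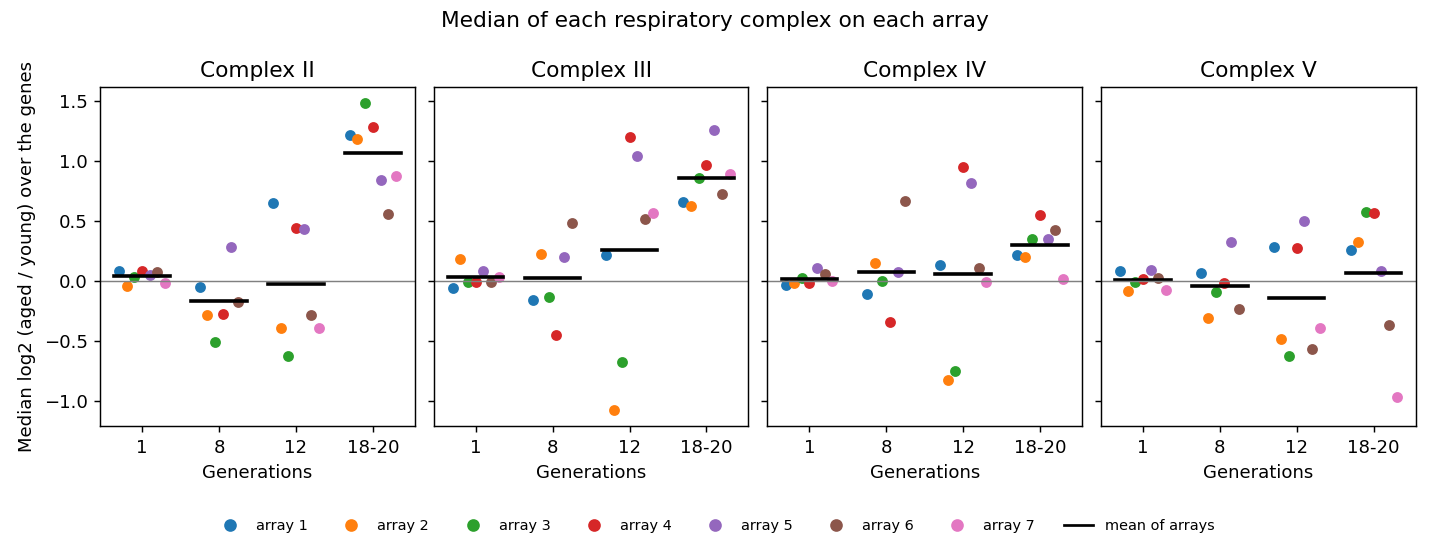
Median log2 ratio of aged over young cells over the tested genes of complexes II, III, IV and V on each array (dots, coloured by array number) at each age, with the mean of the arrays (black line). At 18-20 generations all 7 arrays are above 0 for complexes II, III and IV, while complex V runs from -0.97 to 0.57, and at 12 generations every complex has arrays on both sides of 0.

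Complex V makes ATP with a catalytic F1 head (ATP1, ATP2, ATP3, ATP15, ATP16) on a membrane part and a stalk that holds the head still (ATP4, ATP5, ATP7, ATP14, ATP17, ATP18, ATP20). Of its 12 nuclear subunits 1 rose and 1 fell at 12 generations, where 23.3% of all genes rose and 21.5% fell. At 18-20 generations 2 rose and 3 fell (16.7% and 25%), beside 32.9% and 31.2% of all genes. Both shares were below those of the genome. The median of the complex at 18-20 generations was -0.001. The directions at that age depended on how the arrays were weighed. With array weights the median was 0.36, ATP3, ATP4, ATP16, ATP17 and ATP18 rose and the falls of ATP2 and ATP14 were lost, while with the array-set block the median was -0.44. The arrays of that age differed. The median over the complex was 0.26, 0.32, 0.57 and 0.56 on 18-20-generation arrays 1 to 4, 0.08 on array 5, -0.37 on array 6 and -0.97 on array 7. On every 18-20-generation array it was lower than the median of complex III, by 0.79 ± 0.604 (SD, n = 7), with differences from 0.29 to 1.86.

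ATP2 (YJR121W), the catalytic beta subunit, had the lowest estimate of any subunit at 18-20 generations. It read 0.15, -0.28, 0.66 and 0.01 on arrays 1 to 4, and -1.55, -2.01 and -2.02 on arrays 5 to 7. The estimate of -0.75 ± 0.290 (SE, adjusted p = 0.0257) thus averages arrays near 0 and arrays near -2, and the call was lost without array 5 (adjusted p = 0.0977), 6 (0.126) or 7 (0.136). With array weights ATP2 was -0.02 (adjusted p = 0.923), with the arrays scaled -0.42 (0.205), and with the age fitted alone -0.73 (0.124). At 12 generations ATP2 was 0.71 on array 1 and -0.58, -1.26, -0.30, -0.52, -1.60 and -0.94 on arrays 2 to 7, for -0.67 ± 0.290 (SE, adjusted p = 0.0613). It passed there without 12-generation array 1 (adjusted p = 0.0215), 8-generation array 1 (0.0391) or 18-20-generation array 7 (0.0401).

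ATP18 (YML081C-A), a small membrane subunit of the complex, showed the same division with a mean near 0. It read 1.03, 0.92, 0.91 and 0.69 on 18-20-generation arrays 1 to 4 and -0.87, -1.56 and -1.22 on arrays 5 to 7, so its estimate was -0.02 ± 0.258 (SE, adjusted p = 0.946). With arrays weighted by how well they fit the model, ATP18 turned to 0.73 (adjusted p = 4.04e-05), and with alike arrays averaged it was -0.70 (adjusted p = 0.0453). Its 1-generation values all lay between -0.08 and 0.05.

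ATP15 (YPL271W), the epsilon subunit of the head, rose at both ages, though not under every alternative. It read 0.87, 0.04, 0.31, 1.57, 0.85, 1.74 and 1.34 at 12 generations, above 0 on all 7 arrays, for 0.96 ± 0.205 (SE, adjusted p = 0.000382). At 18-20 generations it read 1.29, 1.23, 1.05 and 1.02 on arrays 1 to 4 and 0.23, -0.14 and -0.28 on arrays 5 to 7, for 0.63 ± 0.205 (SE, adjusted p = 0.00849). That call was lost with alike arrays averaged (0.26, adjusted p = 0.389), the array-set block (0.25, adjusted p = 0.469) or scaling (0.31, adjusted p = 0.0793), and the block also ended the call at 12 generations (0.42, adjusted p = 0.365). ATP7 (YKL016C), a stalk subunit, did not follow this division. It was 0.37, 0.87, 0.33, 0.75, 0.27, 0.40 and 1.07 at 18-20 generations, above 0 on all 7 arrays, and rose by 0.61 ± 0.108 (SE, adjusted p = 1.92e-05). Its highest 1-generation array, at 0.45, still overlapped 4 of them.

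ATP14 (YLR295C), a stalk subunit, and ATP20 (YPR020W), a membrane subunit that helps the enzyme form dimers, fell at 18-20 generations. ATP14 read -0.42, -0.48, -0.03, 0.15, -0.27, -0.90 and -1.26, for -0.45 ± 0.163 (SE, adjusted p = 0.0178), and lost its call without array 6 (adjusted p = 0.0839) or 7 (0.0909), with the age fitted alone (0.0607), scaling (0.190) or array weights (0.0518). ATP20 read -0.54, -0.51, -0.23, 0.03, 0.33, -0.75 and -1.25, for -0.42 ± 0.170 (SE, adjusted p = 0.0332), and lost its call without array 1 (adjusted p = 0.0666), 2 (0.0687), 6 or 7 (0.162), and under 5 other alternatives (adjusted p from 0.0581 to 0.315). At 12 generations ATP14 was -0.38 ± 0.163 (SE, adjusted p = 0.0618) and passed without 12-generation array 1, 4 or 5 or 18-20-generation array 7 (adjusted p from 0.0125 to 0.0458), and ATP20 had arrays on both sides of 0, from -0.71 to 0.76.

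ATP3 (YBR039W), the gamma subunit that turns inside the head, fell at 12 generations and not later. It read 0.19, -0.64, -1.08, -0.25, -0.10, -1.05 and -1.0 at 12 generations, for -0.57 ± 0.143 (SE, adjusted p = 0.00176). At 18-20 generations it read 0.37, 0.35, 0.65, 0.03, -0.38, -0.42 and -0.12, for 0.06 ± 0.143 (SE, adjusted p = 0.740). The difference of 0.63 ± 0.201 (SE) passed (adjusted p = 0.0273), and was lost without any one of 12-generation arrays 2, 3, 6 and 7 or 18-20-generation arrays 1, 2 and 3 (adjusted p from 0.0549 to 0.0714), and with scaling (0.46, adjusted p = 0.288) or alike arrays averaged (0.40, adjusted p = 0.305).

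The remaining 5 subunits of complex V passed at neither age. At 18-20 generations ATP1 (YBL099W), the alpha subunit, was -0.16 ± 0.225 (SE), with arrays from -1.20 to 0.95. ATP16 (YDL004W), the delta subunit, was 0.28 ± 0.180 (SE) and passed without array 7 (0.46, adjusted p = 0.0219). ATP17 (YDR377W), a membrane subunit, was 0.02 ± 0.251 (SE), above 0 on arrays 1 to 4 (0.24 to 0.68) and below 0 on arrays 5 to 7 (-0.24, -0.31 and -1.29). ATP4 (YPL078C), the stator stalk subunit b, was 0.21 ± 0.140 (SE), and ATP5 (YDR298C), measured on 3 arrays, was -0.23 ± 0.252 (SE). At 12 generations ATP1 was -0.49 ± 0.225 (SE, adjusted p = 0.080) and passed without 12-generation array 5 (adjusted p = 0.0228) or 8-generation array 6 (0.0428).

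Set against the 1-generation arrays in place of 0, fewer subunits passed. For 12 minus 1 generation 7 passed (5 rose, 2 fell), where 27.3% of all genes did. Median centring gave 2 that rose and 3 that fell, and scaling 2 and 2. For 18-20 minus 1 generation 13 passed (11 rose, 2 fell), where 51.7% of all genes did and 26.4% rose. Median centring gave 9 that rose and none that fell, and scaling 2 and 2. For 8 minus 1 generation none passed, as for 0% of all genes. In that comparison 1 subunit was among the 257 of 5865 tested genes with an unadjusted p under 0.05 (limma). From 12 to 18-20 generations the 3 that passed, NDE2, COX5A and ATP3, all rose, where 19.7% of all genes passed and 8.53% rose. QCR9, CYT1, COX13 and ATP7 passed as well, upward, without 12-generation array 4 (adjusted p from 0.0217 to 0.0441). CYT1 also passed without 12-generation array 5 or 18-20-generation array 1 or 2, ATP7 without 18-20-generation array 6 and ATP16 without array 7 of that age (adjusted p from 0.0345 to 0.0465). The 12-generation and 18-20-generation estimates are each measured against young cells in the same fit, so likeness between them is not counted here as a result.

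Complex II, succinate dehydrogenase, which feeds electrons from the citric acid cycle into ubiquinone, was read for comparison. All 4 of its genes rose at 18-20 generations, where 32.9% of all genes rose, and 1 at 12 generations, where 23.3% did. SDH3, a membrane anchor, was 1.56, 1.67, 1.50, 1.50, 1.04, 0.60 and 1.00 at 18-20 generations, for 1.26 ± 0.13 (SE, adjusted p = 4.95e-09), and SDH4, the other anchor, was 1.25 ± 0.16 (SE, adjusted p = 1.7e-07). The iron-sulfur subunit SDH2 was 1.04 ± 0.14 (SE, adjusted p = 1.72e-07) and the flavoprotein SDH1 0.50 ± 0.17 (SE, adjusted p = 0.0107). The complex II median exceeded that of complex V on all 7 arrays of 18-20 generations, by 1.00 ± 0.384 (SD, n = 7). At 12 generations the same difference was 0.12 ± 0.160 (SD, n = 7).

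Yeast holds paired isoforms for several of these proteins, of which COX5B and CYC7 are the forms favoured at low oxygen. Their reads at 18-20 generations were high on every array. COX5B, the alternative subunit V, was 0.83, 0.78, 0.88, 1.09, 2.10, 1.62 and 1.53, for 1.24 ± 0.19 (SE, adjusted p = 2.09e-06). CYC7, the second cytochrome c, was 2.18, 1.87, 1.82, 1.67, 2.93, 2.14 and 3.75, for 2.32 ± 0.34 (SE, adjusted p = 1.22e-06). At 12 generations CYC7 rose by 1.15 ± 0.34 (SE, adjusted p = 0.00731) and COX5B was 0.32 ± 0.19 (SE, adjusted p = 0.177).

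Within each array, COX5B exceeded COX5A by 0.91 ± 0.297 (SD, n = 7) at 12 generations, on 7 of 7 arrays, and by 0.81 ± 0.877 (SD, n = 7) at 18-20 generations, on 6 of 7. CYC7 exceeded CYC1 by 1.29 ± 0.831 (SD, n = 6) at 18-20 generations, on 6 of 6 arrays. NDE2 minus NDE1 was -0.69 ± 0.711 (SD, n = 7) at 12 generations, below 0 on 6 of 7 arrays, and NDE2 exceeded NDE1 by 0.66 ± 0.632 (SD, n = 7) at 18-20 generations, again on 6 of 7. In two-sided exact sign-flip tests over the arrays, adjusted over the 12 tests of 3 pairs at 4 ages, none of these differences passed: the lowest exact p, 0.0156 for COX5B at 12 generations, is the smallest that 7 arrays allow and became 0.113. These are differences between ratios, not between levels of the isoforms.

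**Figure D4:**
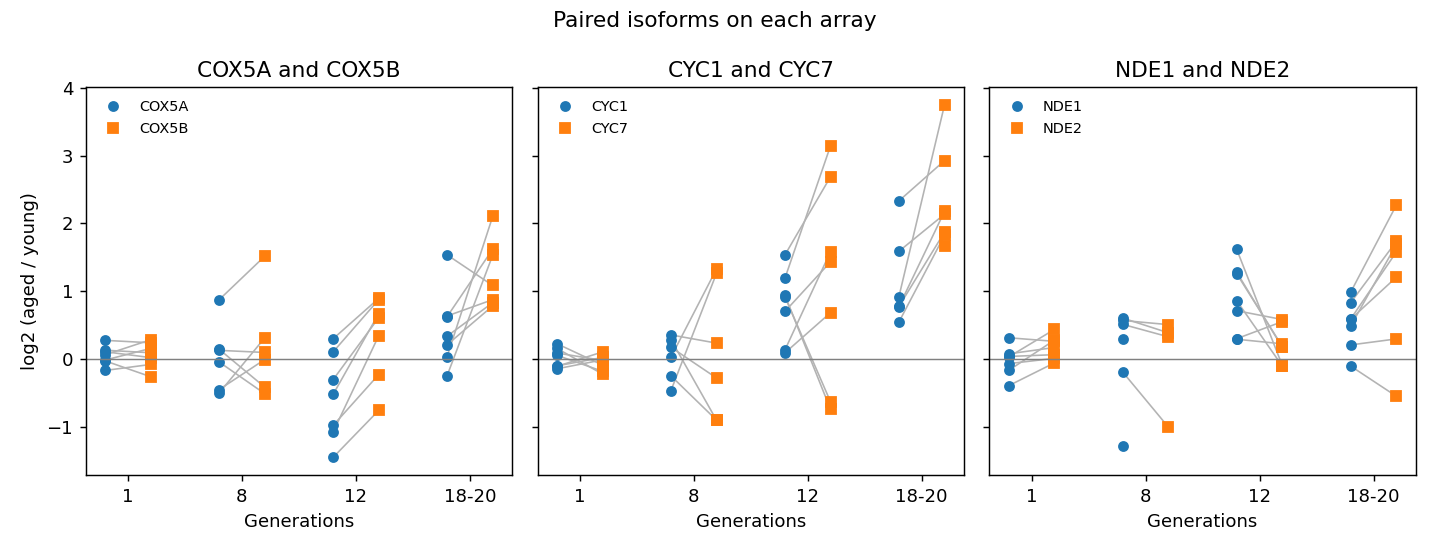
Log2 ratio of aged over young cells for 3 pairs of isoforms on each array at each age (circles and squares, with a grey line joining the values of one array). At 18-20 generations CYC7 lies above CYC1 on every array that measured both, and at 12 generations COX5B lies above COX5A on all 7.

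Of other enzymes that feed the chain, 3 of 3 rose at 18-20 generations, where 32.9% of all genes rose, and CYB2 exceeded every subunit. CYB2, the lactate cytochrome c oxidoreductase that delivers electrons straight to cytochrome c, was 4.36, 4.10, 4.05, 4.47, 3.39, 3.45 and 4.55 at 18-20 generations (4.07 ± 0.30, SE, adjusted p = 5.63e-12). GUT2, the mitochondrial glycerol 3-phosphate dehydrogenase, was 2.02 ± 0.19 (SE), and DLD1, a D-lactate dehydrogenase, 1.87 ± 0.17 (SE). All 3 also rose at 12 generations, where 23.3% of all genes did. The list median was 2.02 at 18-20 generations, beside 0.43 for the subunits.

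Genes that make the chain's cofactors are read here beside the shares over all genes at 18-20 generations, 64.2% changed, 32.9% rising and 31.2% falling. Of 8 tested genes of coenzyme Q synthesis 5 rose and 2 fell (62.5% and 25%), with COQ4 at 1.31, COQ5 at 1.01 and COQ9 at 0.91 among the risers and COQ2, which joins the ring to its tail, at -0.66. Of 8 genes of heme synthesis 1 rose and 3 fell (12.5% and 37.5%), fewer changes than over all genes and a share of falls near theirs. HEM1, the first enzyme of the pathway, was -1.27 ± 0.14 (SE, adjusted p = 7.13e-09), with -1.15, -1.05, -0.89, -1.12, -1.14, -1.40 and -2.17 on the 7 arrays. HEM2 was -1.02 and HEM12 -0.64, while HEM14 was 0.72. HEM1, HEM2 and HEM12 had fallen at 12 generations too (limma).

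Assembly factors are set beside the same shares, 32.9% rising and 31.2% falling over all genes. Of 6 genes for assembly of complex III and cytochrome c, 4 rose and none fell at 18-20 generations, among them CBP4 at 1.21, CBP3 at 0.66, CBP6 at 0.46 and the cytochrome c heme lyase CYC3 at 0.95. Of 16 tested genes for assembly of complex IV, 9 rose and 3 fell (56.2% and 18.8%). The copper chaperones SCO2 and COX17 were 1.68 and 1.12, and COX20 and COX14 1.52 and 1.40, the last measured on 4 arrays. Of 5 genes for assembly of complex V, FMC1 rose at 1.12 and ATP11, a chaperone of the beta subunit, at 0.49, and ATP23 fell at -0.63. Of 11 translational activators of mitochondrial messages, PET494 and MSS51 rose at 1.38 and 0.60, and CBS1 and PET309 fell at -0.84 and -0.48.

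Among 4 further ATP synthase subunits and inhibitors, beside 32.9% rising over all genes, 1 rose at 18-20 generations. This was STF1, which helps hold the F1 head inactive when the proton gradient is lost. It read 2.62, 3.02, 2.57, 2.46, 1.88, 2.42 and 2.92, a narrow range, for 2.57 ± 0.17 (SE, adjusted p = 6.33e-13), and it had risen by 1.33 ± 0.17 (SE, adjusted p = 4.08e-07) at 12 generations. Carriers that bring substrates to the ATP synthase gave 2 that rose and 2 that fell, where 32.9% of all genes rose and 31.2% fell. The phosphate carrier MIR1 was -1.11, -1.41, -0.64, -0.48, -2.29, -1.77 and -2.67 (-1.49 ± 0.20, SE, adjusted p = 2.56e-07), lowest on arrays 5 to 7. The main ADP/ATP carrier PET9 was -0.61 ± 0.11 (SE), the minor one AAC1 0.85 ± 0.20 (SE) and the porin POR1 0.67 ± 0.27 (SE, 4 arrays).

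Of 5 tested regulators of respiratory genes 2 rose and 1 fell at 18-20 generations, where 32.9% of all genes rose and 31.2% fell. HAP2, a DNA-binding part of the activator, was 0.90 ± 0.15 (SE, adjusted p = 1.15e-05), and its partner HAP3 was -0.40 ± 0.14 (SE, adjusted p = 0.0146). ROX1, a repressor of hypoxic genes such as COX5B, was 1.27 ± 0.21 (SE, adjusted p = 7.73e-06). HAP4, the subunit whose amount sets the activator's strength, was unmarked on 12 arrays and was not tested. At 18-20 generations HAP4 read 0.08 on array 1, -1.03 on array 2 and 2.20 on array 7.

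Further core subunits of complexes III, IV and V are encoded in mitochondrial DNA, and the arrays hold spots for 7 of them. Of these, 4 could be tested and 2 fell at 18-20 generations, where 31.2% of all genes fell. They were COX2, a catalytic subunit of complex IV, at -0.72 over 4 arrays, and ATP8, a membrane subunit of complex V, at -1.45. COX2 read -0.46, -0.61, -0.50 and -1.32 on 18-20-generation arrays 1, 4, 6 and 7. On 1-generation arrays 1, 4, 6 and 7 it read 0.18, -0.05, -0.71 and -0.06, so the 2 ages overlapped. ATP8 was below 0 on all 7 arrays, from -2.59 to -0.69, but was also below 0 on 6 of the 7 arrays of 1 generation (from -0.61 to 0.25). OLI1, the ring subunit of complex V, did not pass at either age. Its 12-generation arrays read 0.54, -4.04, -4.22, 3.71, 3.25, 1.77 and 1.82, far below 0 on arrays 2 and 3 and far above 0 on arrays 4 and 5, the arrays on which the nuclear subunits were lowest and highest.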

How the data were processed

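Spotted arrays were scanned in 2 colours, and the image analysis files hold a median foreground and background intensity per spot and channel, per the file headers. The authors' deposited value table holds log2 ratios and served as an alternative: 23 of its 27 columns matched their own array best, and the other 4 were exchanged within 8-generation arrays 1 and 3 and within 1-generation arrays 3 and 4. The percent of bright or saturated pixels per spot comes from the deposited files too. The background was corrected by normexp (offset 50) and ratios were normalized by loess (span 0.3) within each array in limma 3.58.1 (R 4.3.3), leaving out marked spots, and inverted arrays were turned. One limma fit gave each age's mean with a dye term, with Benjamini-Hochberg adjustment over 5865 genes tested and a threshold of 0.05. On simulated data for 18-20 generations against young (5865 genes), the fit recovered 38% of genes changed by 0.5 (log2). The fit recovered 96% of those changed by 1. The simulated noise was independent between arrays, while the real 18-20-generation arrays 1 to 4 correlated at r = 0.93 to 0.96. This can make the rates too high. The simulation changed 50 genes of each size, while 64.2% of all real genes passed at 18-20 generations. The Benjamini-Hochberg cutoff is stricter where few genes change, which can make the rates too low. The simulated noise of a gene also had the same spread at every age. These rates therefore do not give the recovery on the real arrays, and recovery with alike arrays was not tested. Precision is limited by how many arrays there are.

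The subunits and the gene lists were chosen with earlier results of these data known. The list of mitochondrially encoded subunits was added after it was seen which spots the arrays hold. All 33 subunits were to be named, with up to 4 genes of each other list that had the largest changes at 18-20 generations among those that passed, or else the lowest p, and COX5B, CYC7 and HAP4. Array numbers were not used to pair the arrays in the main fit. Deviations of same-numbered arrays correlated over 0.1 in 13 of 39 pairs. Differently numbered pairs were not counted beside them, so this does not settle whether the numbers pair arrays. Alternatives covered background, normalization, scaling, filters, weights, blocks, the direction of 8-generation arrays 1 and 3, averaging of alike arrays, and each array left out.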

Additional observations from a re-analysis of the deposited data

Results flagged for a closer look

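Among 129 sets of arrays of one gene at one age, 9 held an array far from the others, where chance gives about 1 in 20. At 1 generation these were NDI1 on array 5 (-0.32, the others -0.07 to 0.06), COX12 on array 1 (-0.34, the others -0.02 to 0.20) and ATP7 on array 2 (0.45, the others -0.41 to -0.10). At 8 generations array 1, whose direction is not settled, stood apart for NDI1 (0.36, the others -0.80 to -0.40), NDE2 (-1.0, the others 0.33 to 0.51) and CYT1 (0.53, the others -0.58 to -0.32). Array 6 of that age stood apart for COX12 (1.45, the others -0.36 to 0.18) and ATP15 (1.69, the others -0.20 to 0.41). At 18-20 generations QCR9 on array 5 was high (1.45, the others 0.54 to 0.83).

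The change from 12 to 18-20 generations passed the test of the difference itself (limma) for NDE2 (0.96), COX5A (1.01) and ATP3 (0.63). The arrays of the 2 ages overlapped for all 3 genes.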

How the results depend on the processing

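Of the 19 subunits called at 18-20 generations, 9 were called under every alternative that tested them (NDE2, QCR2, QCR6, QCR8, QCR9, QCR10, CYC1, COX7, ATP7), as were 2 of 9 at 12 generations (NDE1, ATP3) and 0 of 3 between those ages. NDE2 was not tested with bright spots alone, since it was bright on only 2 arrays of 1 generation. With arrays scaled to each other 1, 9, 4, 4 and 0 subunits changed at 1 generation, at 18-20 generations, for 12 minus 1, for 18-20 minus 1 and for 18-20 minus 12 generations. With array weights 7, 17, 4, 13, 22 and 7 changed at 8 generations, at 12 generations, and for 8 minus 1, 12 minus 1, 18-20 minus 1 and 18-20 minus 12, and ATP18 at 18-20 generations turned to 0.73. Print-tip loess gave 15 at 12 generations and 5 for 18-20 minus 12. Averaging alike arrays gave 2 for 12 minus 1, 7 at 12 generations and 16 at 18-20 generations. The array-set block gave a median over all subunits of -0.10 at 1 generation and 0.17 at 8 generations, and 11 subunits called at 12 generations and 15 at 18-20.

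Leaving out each array in turn gave 8 to 14 subunits at 12 generations (14 without 12-generation array 2), 15 to 20 at 18-20 generations, 4 to 10 for 12 minus 1 (4 without 12-generation array 4), 9 to 14 for 18-20 minus 1, and 1 to 7 for 18-20 minus 12 (1 without 12-generation array 2 or 3, 7 without array 4). The median of all subunits then ranged from -0.06 to 0.26 at 12 generations and from 0.40 to 0.46 at 18-20 generations. With the replicate block 12 subunits were called at 12 generations and 20 at 18-20 generations. Nothing beyond the number is known here to link same-numbered arrays, and 2 of the 27 arrays correlated best with their own number. The deposited table gave 8 and 18. The cause of these shifts was not tested. The counts under alternatives are given without the share over all genes under the same setting. They describe how the calls depend on the setting and show nothing particular to the subunits. Signal over background limits NDE2 and ATP5 most.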
